A study of Mus musculus with 12 samples.

Results

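Peaks on ERVL-MaLR repeats were all open chromatin regions of a pooled ATAC-seq peak-list whose HOMER detailed annotation placed the peak centre on an ERVL-MaLR element. They numbered 3378 of 84243 peaks, or 4.01% (95% Wilson interval 3.88 to 4.14%, which like the other intervals covers counting error only). ATAC-seq marks accessible DNA by the insertion of adapters with a transposase. The list came from 12 samples of wild-type C57BL/6 mice aged 8 to 12 weeks. It pooled 2 replicates of each of 6 sorted cell types. Bone marrow gave hematopoietic stem cells (HSCs), the progenitors of megakaryocytes (MkP) and of erythroid cells (EP), mature granulocyte/macrophages (GM) and B cells, and the T cells were labelled as thymic. The labels did not say whether replicates came from separate animals. The list held 0 columns of values per sample, its score was 0 in every peak, and no cell type was named for any peak. Read depth per peak is unknown for this reason, no value has an error between replicates, and cell types could not be compared. Peaks are not replicates, so the shares and intervals describe the list, and no test was made.

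ERVL-MaLR elements are non-autonomous relatives of endogenous retroviruses. They carry long terminal repeats (LTRs) but no genes for their own copying, and most copies in the genome are solitary LTRs left after recombination. MLT1 is the oldest group and is shared among placental mammals, whereas the MT and ORR1 groups expanded in rodents. An LTR contains retroviral promoter and polyadenylation sequences, and LTRs of several families act as promoters or enhancers in mouse tissues, including the oocyte for MT elements.

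The 4 largest subfamilies among the peaks were ORR1E with 508 peaks, MTD with 371, ORR1D2 with 297 and ORR1F with 201, together 40.8% of all ERVL-MaLR peaks. As examples of such peaks, the central 151 bases of 1 peak of each subfamily are given, namely the peak to which the highest number of others of its subfamily aligned. That number was 122 of 508 peaks for ORR1E, 201 of 371 for MTD, 105 of 297 for ORR1D2 and 7 of 201 for ORR1F, so these windows are examples and do not stand for their subfamilies. They are on the plus strand of mm10, from chr7:116491244-116491394 (ORR1E), chr6:72275675-72275825 (MTD), chrX:11647139-11647289 (ORR1D2) and chr6:115717809-115717959 (ORR1F). Capitals mark exact matches to the transcription factor strings described later.
ORR1E: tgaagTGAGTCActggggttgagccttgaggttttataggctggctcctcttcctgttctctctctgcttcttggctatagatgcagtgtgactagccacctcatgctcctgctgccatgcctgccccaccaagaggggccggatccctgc
MTD: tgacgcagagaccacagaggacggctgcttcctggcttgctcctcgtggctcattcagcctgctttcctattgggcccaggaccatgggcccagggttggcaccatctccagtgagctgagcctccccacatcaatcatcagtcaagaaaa
ORR1D2: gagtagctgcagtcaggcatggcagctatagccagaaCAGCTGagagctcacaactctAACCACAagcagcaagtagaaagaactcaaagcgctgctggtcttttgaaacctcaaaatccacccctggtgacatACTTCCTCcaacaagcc
ORR1F: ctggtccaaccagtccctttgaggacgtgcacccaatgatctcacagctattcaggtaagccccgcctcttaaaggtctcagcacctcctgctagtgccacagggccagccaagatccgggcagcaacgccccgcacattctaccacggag
The ORR1E peak held an AP-1 string. The ORR1D2 peak held an E protein string, a RUNX string and, on the minus strand, the PU.1 string. The MTD and ORR1F windows held none of the factor strings.

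The most frequent place of the PU.1 string GAGGAAGT was sought within the profile of each subfamily. Windows around it are shown for ORR1 subfamilies because later results turn on it. Profiles of different subfamilies were not aligned with each other. The most frequent 24-base window at this place was the same in 4 subfamilies, and a similar one was the most frequent in ORR1D2. Each window is written in the direction of the string, which is in capitals.
ORR1B1, ORR1B2, ORR1A2 and ORR1A4: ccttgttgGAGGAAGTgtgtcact
ORR1D2: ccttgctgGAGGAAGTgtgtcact
Windows were counted in genome copies at a peak with the string at this place. A copy with the string in several places was counted for each. Exactly this window made up 9 of 73 in ORR1B1, 4 of 69 in ORR1B2, 6 of 24 in ORR1A2 and 3 of 12 in ORR1A4. For the ORR1D2 window the count was 4 of 97. No window occurred more than once among the 91 of ORR1E copies, and the letters around the string varied. As examples, an ORR1B1 peak 1306 bp from the TSS of Platr7, at chr10:84551783-84552281, read as in the first line, and an ORR1B2 peak 1103 bp from that of Psmd14, at chr2:61712548-61713046, as in the second. Psmd14 encodes a deubiquitinating subunit of the proteasome.
Platr7: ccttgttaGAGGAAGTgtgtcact
Psmd14: ctttgctgGAGGAAGTgtgtcact

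HOMER names a repeat for intron and intergenic peaks, so the other intron and intergenic peaks were used for comparison: 2171 on other LTR elements, 7197 on repeats of other classes and 53889 outside repeats. ERVL-MaLR peaks were 5.07% of all 66635 intron and intergenic peaks and 26.5% of the 12746 on any repeat. They were 60.9% (59.6 to 62.2%) of the 5549 peaks on LTR elements. The next LTR families were ERVK with 1144 peaks (20.6%), ERVL with 582 (10.5%) and ERV1 with 399 (7.19%).

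The ORR1 group held 1910 ERVL-MaLR peaks (56.5%), the MT group 953 (28.2%) and the MLT1 group 515 (15.2%). There were 86 subfamily names in all. Of these, 31 had at least 20 peaks and held 3010 of the peaks, and the other 55 had at most 19 peaks each and held 368. After the 4 named above came ORR1B1 with 189, ORR1B2 with 137, ORR1A2 with 128, MTC with 127 and MTEa with 116. MTE2b had 81, ORR1D1 79, MTE2a 74, MTEb 68, ORR1C2 68, ORR1A4 64 and ORR1C1 58. In the MLT1 group the peaks were spread more evenly, with 45 for MLT1B, 43 for MLT1A0, 42 for MLT1J, 36 for MLT1C, 29 for MLT1D, 23 for MLT1F1 and 22 each for MLT1A, MLT1F2 and MLT1K. The remaining named subfamilies were ORR1A3 (36 peaks), ORR1G (31), MTB_Mm (25), MTE-int (23), ORR1A1 (23) and ORR1A0 (22). Internal parts of the elements, whose names end in -int, accounted for 174 peaks (5.15%), so that nearly all of the peaks lay on LTRs.

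**Figure D1:**
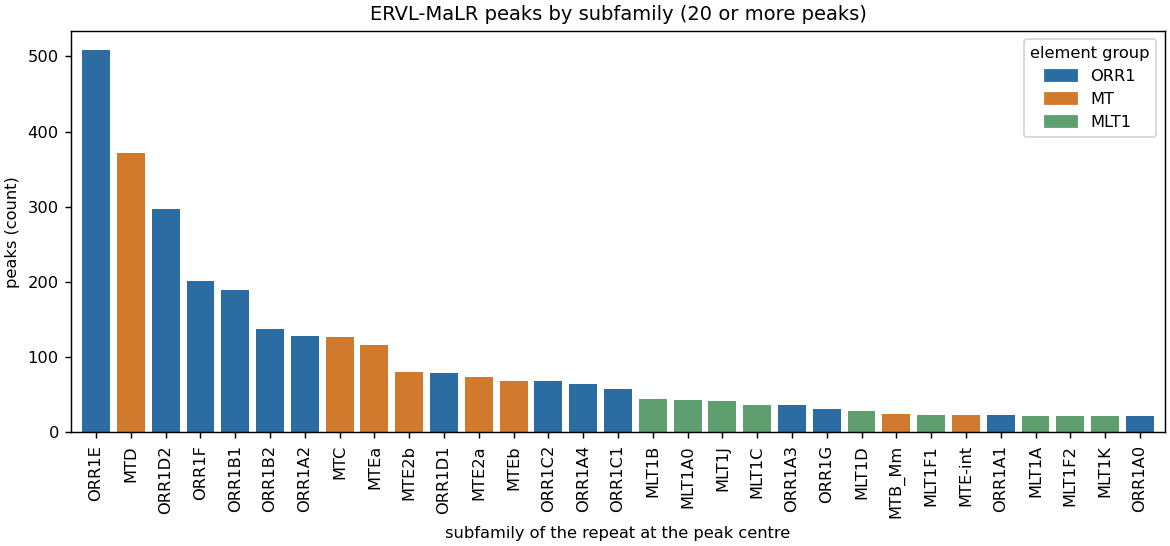
Number of ERVL-MaLR peaks (vertical axis, count) in each of the 31 subfamilies with at least 20 peaks (horizontal axis), coloured by element group. ORR1E with 508 and MTD with 371 are the tallest bars, and MLT1 subfamilies have at most 45 peaks each.

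The subfamily names were checked against the sequence. By blastn, 2659 peaks (78.7%) had a similar stretch in another ERVL-MaLR peak, and the closest other peak was of the same subfamily for 57.4% of them and of the same element group for 84.8%. Profiles of 14 subfamilies, built from their peaks, were then searched against the whole genome. Of the 2427 peaks of these subfamilies, 2144 (88.3%) had their centre in a genome copy found in this way. The copy matched the deposited subfamily best for 88.3% of those and the same group for 99.7%. Because each profile was built from the peaks of that name, this agreement was favoured in advance and is no independent check.

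ERVL-MaLR peaks lay in introns less often than peaks outside repeats. Introns held 1441 of them, or 42.7% (41.0 to 44.3%), and the other 1937 were intergenic. The intron share was 31.9% for peaks on other LTR elements, 51.9% on repeats of other classes and 53.9% outside repeats. Among the larger subfamilies the share ran from 35.9% (25.3 to 48.2%) in ORR1A4 to 52.3% (43.7 to 60.8%) in ORR1A2. By group it was 42.8% for ORR1, 44.9% for MT and 38.1% for MLT1. Of the intronic ERVL-MaLR peaks, 33.8% lay in a first intron.

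The median distance of an ERVL-MaLR peak to the nearest transcription start site (TSS) was 27978 bp, with quartiles of 11376 and 66129 bp. The median was 24858 bp for peaks on other LTR elements, 21778 bp on other repeats and 23692 bp outside repeats. Within 10 kb of a TSS lay 723 ERVL-MaLR peaks (21.4%), against 27.8% of the peaks outside repeats, and 15.8% were more than 100 kb away. ORR1C2 had the highest share within 10 kb among subfamilies of at least 60 peaks, with 26 of 68 (38.2%), and MTEa the lowest, with 18 of 116 (15.5%). The peak was upstream of the TSS in 46.3%.

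No ERVL-MaLR peak was centred within 500 bp of a TSS, and 1 was within 1000 bp. That peak was an ORR1E peak at chr6:129236950-129237448, in an intron 846 bp downstream of the TSS of 2310001H17Rik. The next 4 were an ORR1A2 peak 1003 bp upstream of Anapc4, which encodes a subunit of the anaphase-promoting complex, an MLT1A1 peak 1005 bp upstream of Hnrnpr, an MLT1B peak 1015 bp downstream of the TSS of Rapgef5 and an ORR1F peak 1035 bp upstream of AI314180. Hnrnpr encodes an RNA-binding ribonucleoprotein and Rapgef5 an exchange factor for Ras-like GTPases.

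Across chromosomes, ERVL-MaLR peaks made up between 3.18% (chromosome 19) and 6.08% (chromosome 13) of the intron and intergenic peaks. On X they were 64 of 1336 (4.79%), and Y had none among its 7 such peaks. The peaks were mostly scattered. The median distance between neighbouring ERVL-MaLR peaks was 292668 bp, and 146 of 3358 neighbouring pairs lay within 10000 bp, of which 18 were of 1 subfamily. The nearest other peak of any kind was at a median of 5211 bp, against 4543 bp for peaks outside repeats. The median GC content was 46.3% against 48.1% outside repeats, and the median number of CpG dinucleotides in a peak was 4 against 6.

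Near-identical peaks were rare. By alignments of at least 400 bases with at least 90% identity, 6 pairs were found, all on 1 chromosome each and involving 9 peaks. In 3 of these pairs the MLT1B peaks of the Ly6 gene cluster on chromosome 15 matched each other: the peak nearest Ly6a (chr15:75019462-75019960) and a pair nearest Ly6c2 (chr15:75087996-75088494 and chr15:75120005-75120503). Their identities were 94.1%, 92.9% and 94.0%. Peaks such as these share sequence and are not independent of each other. The ORR1C2 peaks nearest Mthfs and Mthfsl, on chromosome 9, were 97.2% identical over 499 bases.

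ERVL-MaLR peaks had 2678 genes as nearest promoter, or 14.1% of the 19041 genes that were nearest to any peak. Of these genes, 2176 had 1 ERVL-MaLR peak, 370 had 2 and 132 had at least 3. The non-coding RNA gene Gm17746 had most, with 7 of its 51 intron and intergenic peaks. Klf13, a zinc finger factor of the KLF family, had 6 of 26, from 6243 to 86447 bp away, and Mbnl1, a splicing regulator, had 6 of 34. The non-coding genes 4921525O09Rik and Gm4668 had 6 each, of 35 and 29. Genes with 5 ERVL-MaLR peaks were Manba, a lysosomal mannosidase, with 5 of 13 (38.5%), Timm8a2 with 5 of 16 (31.2%) and Mir21c with 5 of 22 (22.7%). Frmd4a, Gm15326, Hs6st1, Itpr2, Map3k7, Pik3r1 and Plcl2 also had 5 each, among 26 to 47 peaks per gene. Itpr2 encodes a calcium channel of the endoplasmic reticulum, Map3k7 the kinase TAK1 and Pik3r1 a regulatory subunit of PI3-kinase. In 4 of these 15 genes (Gm15326, Manba, Map3k7 and Timm8a2) each peak came from another subfamily, and in the other 11 at least 1 subfamily occurred more than once. The highest such numbers were 3 of 5 peaks from ORR1F for Mir21c, 3 of 5 from MTD for Plcl2 and 3 of 6 from ORR1E for 4921525O09Rik.

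Genes with known roles in the 6 cell types were followed through lists of 152 genes. Of their 923 intron and intergenic peaks, 37 were ERVL-MaLR peaks, or 4.01% (2.92 to 5.48%), beside 5.07% over all genes. These peaks belonged to 23 genes. The share was 12 of 243 peaks (4.94%) in the HSC list, 3 of 85 (3.53%) in the megakaryocyte list and 2 of 92 (2.17%) in the erythroid list. It was 4 of 91 (4.40%) in the granulocyte/macrophage list, 6 of 185 (3.24%) in the B cell list and 10 of 227 (4.41%) in the T cell list. A list of genes of other tissues had 3 of 41 (7.32%, 2.52 to 19.4%). The intervals of all 7 lists included 5.07%. Within 50 kb of the TSS lay 16 of the 37 ERVL-MaLR peaks of the blood lists, at 13 genes. Over all genes, 2274 of the 3378 ERVL-MaLR peaks lay within 50 kb.

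In the HSC list, Mllt3, a regulator of stem cell maintenance, had an MTD peak 13146 bp upstream. Ly6a, which encodes the stem cell marker Sca-1, had the MLT1B peak 21680 bp upstream. The transcription factor genes Erg and Runx1 had an MTE2a peak 28089 bp upstream and an MLT1L peak 41454 bp upstream. Among megakaryocyte genes, Selp (P-selectin) had an MTD peak 21806 bp upstream, and Vwf (von Willebrand factor) had an ORR1F and an MTD peak in its introns, 31005 and 42083 bp from the TSS. Among granulocyte/macrophage genes, S100a8, an abundant neutrophil protein, had an MTD-int peak 3780 bp downstream of its TSS. Mpo (myeloperoxidase) had an MTEa peak at 14702 bp, and Ly6g, a neutrophil surface marker, had MLT1B peaks 11330 bp upstream and 34079 bp downstream.

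Among B cell genes, the coactivator gene Pou2af1 had an MTEb peak 18691 bp upstream and Bach2 an ORR1D1 peak in an intron at 27401 bp. Among T cell genes, Zap70, a kinase of the T cell receptor pathway, had an ORR1C1 peak at 7626 bp and an ORR1F peak at 18624 bp, and Themis had an ORR1F peak 27583 bp upstream. No erythroid gene had an ERVL-MaLR peak within 50 kb. The nearest was an MTEb peak 154831 bp from the TSS of Bcl11a, a repressor of fetal globin genes. By the nearest curated RefSeq TSS, the erythroid list had no ERVL-MaLR peak and the granulocyte/macrophage list 2 instead of 4. The 6 lists together then had 33 instead of 37. Of the genes of other tissues, only the cartilage collagen gene Col2a1 had an ERVL-MaLR peak within 50 kb, an ORR1B2 peak 13402 bp upstream. Because the list names no cell type, these positions say where a peak was found and not in which cells.

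The central 151 bases of the peak nearest a TSS in each of the 6 blood lists, by the deposited gene and distance, are given as examples. How alike they are was not measured. They lie at chr4:88046478-88046628 (Mllt3), chr1:164093383-164093533 (Selp), chr11:24235451-24235601 (Bcl11a), chr3:90672776-90672926 (S100a8), chr9:51194924-51195074 (Pou2af1) and chr1:36754097-36754247 (Zap70), on the plus strand, with capitals for factor strings as above.
Mllt3: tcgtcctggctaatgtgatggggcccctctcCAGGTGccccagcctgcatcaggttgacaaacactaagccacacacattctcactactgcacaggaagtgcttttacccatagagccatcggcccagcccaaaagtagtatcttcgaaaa
Selp: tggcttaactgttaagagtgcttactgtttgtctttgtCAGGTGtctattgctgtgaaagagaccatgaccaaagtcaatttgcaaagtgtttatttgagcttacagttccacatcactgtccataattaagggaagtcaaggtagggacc
Bcl11a: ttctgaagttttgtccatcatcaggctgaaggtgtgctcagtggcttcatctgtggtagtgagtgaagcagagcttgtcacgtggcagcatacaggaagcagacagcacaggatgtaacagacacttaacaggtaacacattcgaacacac
S100a8: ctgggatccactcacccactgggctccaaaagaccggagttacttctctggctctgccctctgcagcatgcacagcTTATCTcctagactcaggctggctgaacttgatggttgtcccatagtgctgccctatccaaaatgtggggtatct
Pou2af1: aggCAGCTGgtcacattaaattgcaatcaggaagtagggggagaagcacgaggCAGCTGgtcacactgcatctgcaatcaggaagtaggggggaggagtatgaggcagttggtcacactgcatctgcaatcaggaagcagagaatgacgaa
Zap70: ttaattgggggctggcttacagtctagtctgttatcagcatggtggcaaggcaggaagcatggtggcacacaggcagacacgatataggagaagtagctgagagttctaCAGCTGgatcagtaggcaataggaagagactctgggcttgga
The Mllt3 and Selp windows each held a ZEB string, the S100a8 window a GATA string, the Pou2af1 window the E protein string in 2 places and the Zap70 window in 1. The Bcl11a window held none.

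Short consensus strings were searched for on both strands of the 499 bp of each peak, the same length in every class. A match describes letters in the window and does not show that a factor bound. Of the 21 strings, the one that differed most from peaks outside repeats, in percentage points and as a ratio, was that of PU.1, the ETS factor that directs myeloid and B cell development. GAGGAAGT was present in 918 ERVL-MaLR peaks, or 27.2% (25.7 to 28.7%). It was present in 10.3% (9.06 to 11.6%) of peaks on other LTR elements, 8.61% (7.99 to 9.29%) on other repeats and 9.51% (9.27 to 9.76%) outside repeats. With 1 mismatch allowed, the shares were 77.5% of ERVL-MaLR peaks and 62.2% of peaks outside repeats.

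The PU.1 string was most frequent in the ORR1 group, where 742 of 1910 peaks (38.8%, 36.7 to 41.1%) held it. In the MT group it was in 113 of 953 peaks (11.9%, 9.96 to 14.1%) and in the MLT1 group in 63 of 515 (12.2%, 9.68 to 15.3%). Within ORR1, it was in 131 of 189 ORR1B1 peaks (69.3%), 40 of 64 ORR1A4 peaks (62.5%) and 76 of 137 ORR1B2 peaks (55.5%). ORR1D2, ORR1C2 and ORR1E followed with 39.7%, 38.2% and 37.8%, then ORR1F with 27.9% and ORR1D1 with 24.1%. ORR1A2 had 15 of 128 (11.7%, 7.23 to 18.4%), and MTD had the lowest share at 8.63%. Neighbours in this order had intervals that ran into each other, except ORR1B2 and ORR1D2, whose intervals were 47.1 to 63.5% and 34.3 to 45.4%.

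**Figure D2:**
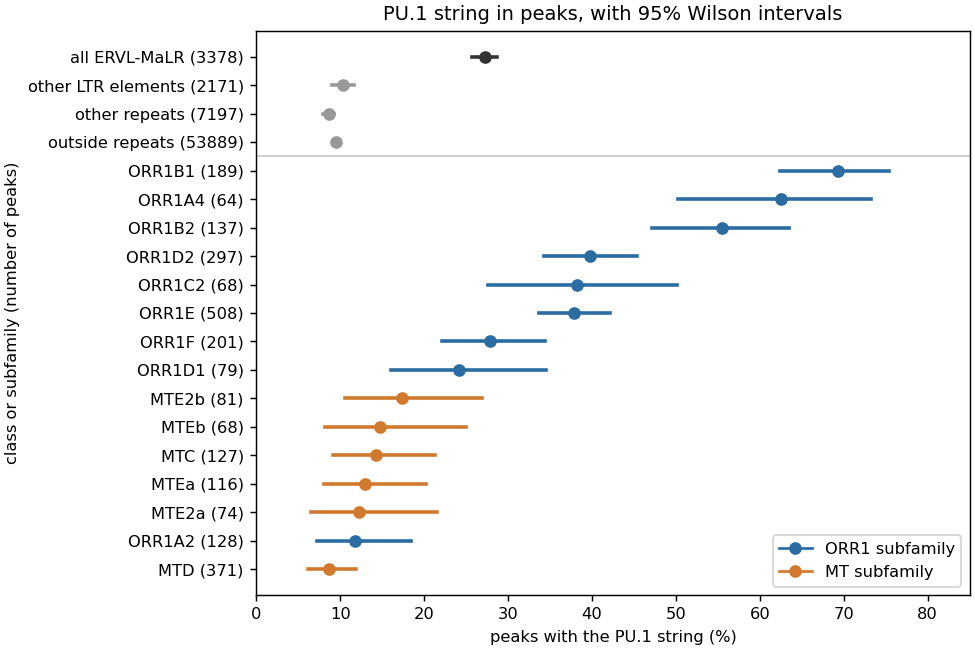
Share of peaks with the PU.1 string on either strand (horizontal axis, %) in all ERVL-MaLR peaks, in 3 comparison classes and in each subfamily with at least 60 peaks, with the number of peaks in parentheses and 95% Wilson intervals as bars. ORR1B1 reaches 69.3%, whereas MT subfamilies and ORR1A2 lie at 8.63 to 17.3%.

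The PU.1 string also lay close to the peak centre. In ERVL-MaLR peaks with the string, the nearest one was at a median of 27.5 bp from the centre and within 50 bp in 71.8%. Outside repeats the median was 41.5 bp and the share within 50 bp was 56.2%. The median was 20.5 bp in ORR1B1, 14.5 bp in ORR1A4, 26.5 bp in ORR1B2, 30.5 bp in ORR1E and 42.5 bp in ORR1D2. In the MT and MLT1 groups, where fewer peaks held the string, it was 29.5 bp in each.

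**Figure D3:**
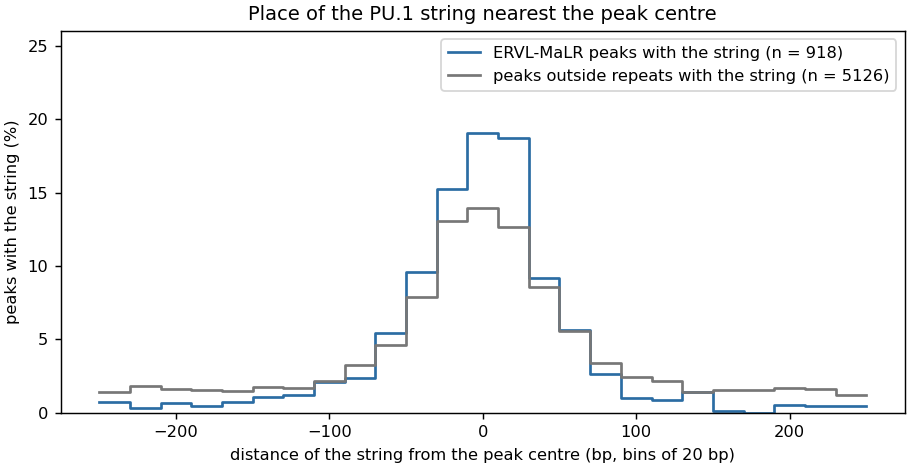
Distance of the PU.1 string from the peak centre (horizontal axis, bp, bins of 20 bp) as a share of the peaks with the string (vertical axis, %), for 918 ERVL-MaLR peaks and 5126 peaks outside repeats. The central bin, within 10 bp of the centre, holds 19.06% of the ERVL-MaLR peaks and 13.93% of the others.

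The other strings differed less from peaks outside repeats. RUNX factors, which are needed for the emergence of HSCs, read AACCACA, found in 21.3% of ERVL-MaLR peaks, 22.3% on other LTR elements, 21.0% on other repeats and 17.5% outside repeats. ORR1D2 had it in 109 of 297 peaks (36.7%, 31.4 to 42.3%), ORR1D1 in 26 of 79 (32.9%) and ORR1A2 in 10 of 128 (7.81%). The PU.1 and RUNX strings did not go together, since RUNX was in 21.5% of ERVL-MaLR peaks with the PU.1 string and 21.3% of those without. The GATA string AGATAA was in 25.8% of ERVL-MaLR peaks and 26.7% outside repeats, and was nearer to the latter than to the 33.1% on other LTR elements. The interferon regulatory factor string GAANNGAAA was in 25.6% of MT peaks, 14.1% of ORR1 peaks and 18.2% outside repeats.

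Several strings were less frequent in ERVL-MaLR peaks than outside repeats. Part of the CTCF site, AGNNGGCNC, was in 20.1% against 29.7%, the C/EBP string TTGCNNAA in 15.4% against 21.2%, and the GC box GGGCGG in 8.11% against 15.5%. The NF-E2 string TGANTCAGC, which contains the AP-1 string TGANTCA, was in 2.22% against 3.90%, with 7.42% on other LTR elements, and the AP-1 string in 14.2% against 17.0%. The E protein string CAGCTG was in 26.3% against 31.0% and the ZEB string CACCTG in 27.4% against 33.1%. The STAT string TTCNNNGAA was in 11.0% against 15.3%, the EBF string CCCNNGGGA in 6.39% against 9.17%, the NF-kB string GGGANTTCC in 1.36% against 2.26%, with 4.05% on other LTR elements, and the high-affinity ETS string CCGGAAG in 2.81% against 4.30%. With 1 mismatch allowed, 14 of the 21 strings were in at least 85% of the peaks of both classes, the CTCF, C/EBP, GC box, AP-1, E protein, ZEB and STAT strings among them, so this setting could not show a difference for these. Of the others, ETS was no longer less frequent (71.8% against 69.1%), whereas NF-E2 was in 36.6% against 38.9%, EBF in 63.4% against 66.3% and NF-kB in 25.8% against 31.5%. Differences were small for the TCF string ATCAAAG (8.08% against 7.41%) and the nuclear receptor string AGGTCA (28.0% against 27.7%). The string TTACGTAA of HLF and NFIL3 was rare in both classes, in 3 ERVL-MaLR peaks (0.0888%, 0.0302 to 0.261%) and 90 peaks outside repeats (0.167%). Promoter and polyadenylation strings were more frequent than outside repeats, with CCAAT in 52.6% against 44.6%, TATAAA in 30.6% against 22.3% and AATAAA in 41.8% against 34.5%. On other LTR elements they were in 56.7%, 30.2% and 43.2%, and on repeats of other classes in 47.1%, 29.9% and 48.2%, so the excess was found on repeats of each class.

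To see whether peaks sat on the same part of a repeat, peak centres were placed on the subfamily profiles. The profile aligned the centre of 83.8 to 98.7% of peaks in the 14 subfamilies. In ORR1A2, 81 of 116 centres (69.8%) fell within 25 bases of the median position, a window that covers 16.5% of the profile. In ORR1A4 it was 41 of 61 (67.2%, window 17.7%) and in ORR1B1 82 of 183 (44.8%, window 13.8%). The shares were lowest in ORR1D1, with 20.3% in a window of 14.7%, and in MTD, with 22.9% in 15.2%. The interquartile range of the centres was 119 bases in ORR1D1 and MTE2a and 107 in MTD, against 30 in ORR1A2. ORR1E had 37.0% in 17.0% and ORR1D2 31.7% in 14.4%. A peak width of 499 bp is longer than each profile, which is 282 to 370 bases, so the centre and not the extent of the peak was compared.

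The most frequent place of the PU.1 string in each profile was taken from copies at peaks, and any subfamily with the string has such a place. In copies at peaks, 90 of 150 strings in ORR1E, 97 of 162 in ORR1D2, 38 of 55 in ORR1F, 65 of 107 in ORR1B2, 71 of 165 in ORR1B1, 23 of 53 in ORR1C2 and 23 of 28 in ORR1A2 were within 10 bases of it. In ORR1A4 it was 12 of 17, in ORR1D1 4 of 8 and in MTC 14 of 26. In the other MT subfamilies with a profile the share was 26.1% (MTD) to 33.3% (MTE2a). This place was 0 bases from the median peak centre in ORR1A4, 8 in ORR1A2, 14 in ORR1B1, 17 in ORR1B2, and 33 to 65 in ORR1E, ORR1D2 and ORR1F. ORR1A2 thus had its peak centres at this place although few of its peaks held the string.

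**Figure D4:**
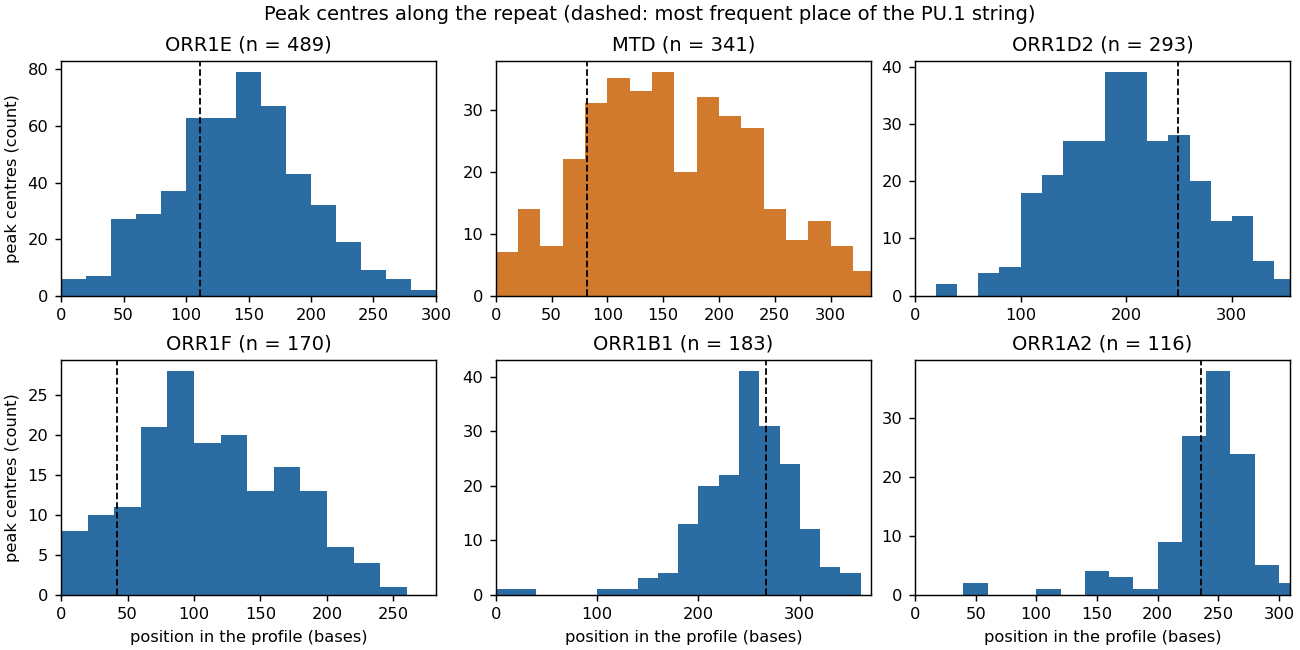
Peak centres (vertical axis, count) along the subfamily profile (horizontal axis, bases, bins of 20) for 6 subfamilies, with the most frequent place of the PU.1 string dashed. Profiles have no common direction. The 116 ORR1A2 and 183 ORR1B1 centres gather near the dashed line, and the 341 MTD centres spread along the repeat.

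The peaks were next set against the copies that the 14 profiles found in the genome. Each copy took the name of its best profile, so copies of subfamilies without a profile can be counted under a profiled name. Copies at a peak numbered 27 for ORR1A4 and 384 for ORR1D2, against 64 and 297 peaks by the deposited names. The 14 profiles matched 235164 copies of at least 150 bases in the reference genome, of which 2513 (1.07%, 1.03 to 1.11%) had a peak centre inside, and 94.6% of these centres were ERVL-MaLR peaks by the deposited annotation. ORR1D2 and ORR1E had the highest share of copies at a peak, 2.83% (2.57 to 3.12%) of 13560 and 2.78% (2.52 to 3.05%) of 14731. ORR1B2 followed with 1.60%, ORR1F with 1.50% and ORR1B1 with 1.36%. MTD, with the second highest number of peaks, had a peak at 0.905% of its 35489 copies, ORR1A2 at 0.761% of 23000, ORR1D1 at 0.492% and MTC at 0.367% (0.316 to 0.427%) of 46021. Copies at peaks had a median length of 302 bases and copies elsewhere 304. Reads that map to several places had been left out, and copies were more alike in some subfamilies than in others. The median score of the match to the profile was 1.02 bits per base for ORR1A2 copies at peaks and 0.413 bits per base for ORR1E copies at peaks, and the part of this in the shares was not tested.

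Copies at peaks were closer to genes. Their median distance to a curated RefSeq TSS was 24780 bp, against 55215 bp for copies elsewhere, and 43.5% against 31.7% were in introns. Of copies within 10 kb of a TSS, 1.79% had a peak, of those from 10 to 100 kb 1.33%, and of those farther away 0.405%.

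Copies with the PU.1 string were at a peak more often than copies without it. Over all profiles, 797 of 24343 copies with the string were at a peak (3.27%, 3.06 to 3.51%) and 1716 of 210821 copies without it (0.814%, 0.776 to 0.853%), a 4.02-fold difference. Put the other way, 31.7% of copies at peaks and 10.1% of copies elsewhere held the string. The direction was the same in all 14 subfamilies. The intervals of the share with the string were apart in each, and those of the share at a peak in 13, the exception being ORR1A4 (1.05 to 2.74% with and 0.408 to 1.30% without the string). The ratio of the shares at a peak ran from 1.98 in ORR1A2 to 6.22 in MTEb with a median of 3.74. In ORR1E the shares were 7.88% (6.74 to 9.19%) with and 2.04% (1.81 to 2.30%) without the string, and in ORR1B1 2.36% and 0.678%. Within distance classes the difference was 3.58-fold for copies within 10 kb of a TSS, 4.09-fold from 10 to 100 kb and 4.14-fold beyond. Within most subfamilies, copies at peaks also matched their profile better than copies elsewhere. The medians were 0.413 against 0.330 bits per base in ORR1E and 0.549 against 0.544 in ORR1D1. The exceptions were MTC (0.737 against 0.756) and ORR1A4 (0.807 against 0.812). Over all profiles the median was 0.556 at peaks and 0.577 elsewhere. Profiles were built from peaks, and the part of the match to the profile in the difference by string was not tested.

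**Figure D5:**
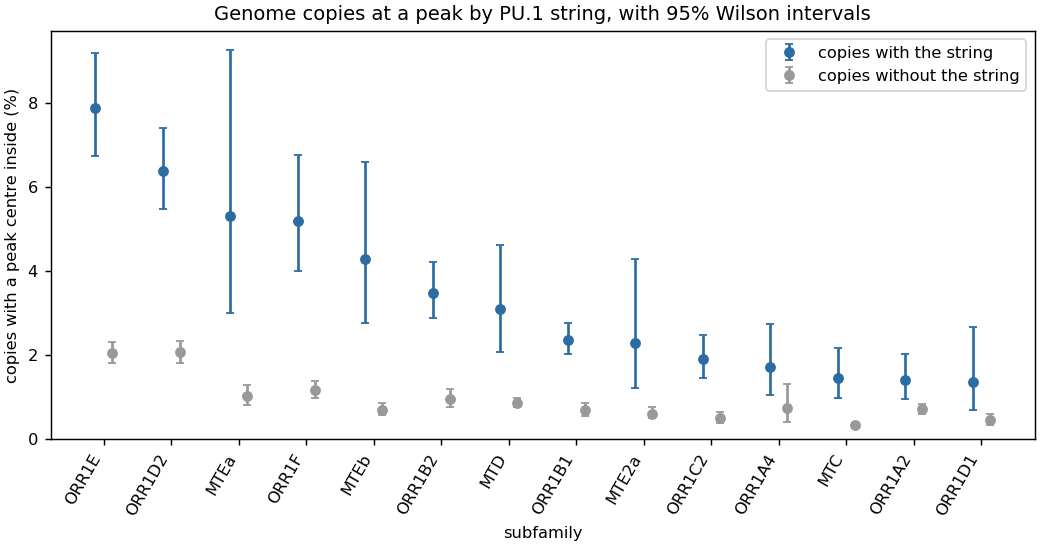
Share of genome copies with a peak centre inside (vertical axis, %) for copies with and without the PU.1 string, in 14 subfamilies (horizontal axis), with 95% Wilson intervals. In each subfamily the copies with the string lie higher, from 7.88% against 2.04% in ORR1E to 1.36% against 0.445% in ORR1D1.

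The string at its most frequent place was compared in the same way. The place had been chosen from the copies at peaks that were counted here. That choice favours the string in copies at peaks, so part of each difference can come from it. Of ORR1E copies with it there, 7.97% of 1129 were at a peak, against 2.36% of the other copies that span the place. The shares were 6.39% and 2.56% in ORR1D2, 5.01% and 1.31% in ORR1F, 4.23% and 1.35% in ORR1B2, 2.83% and 1.11% in ORR1B1 and 1.53% (1.02 to 2.29%) and 0.748% (0.639 to 0.877%) in ORR1A2. In ORR1D1 they were 1.73% (0.675 to 4.37%) of 231 copies and 0.484% (0.369 to 0.636%). In ORR1A4, with 753 copies that held it, the intervals ran into each other (0.914 to 2.76% and 0.575 to 1.56%), as they did in ORR1C2, with 1718 copies (0.894 to 2.00% and 0.593 to 0.913%). Among MT subfamilies, the shares were 2.10% of 668 copies and 0.347% in MTC, and 6.00% of 100 copies and 1.03% in MTD. MTEa, MTE2a and MTEb had the same direction, with 15, 56 and 66 copies that held it.

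The letters between shared flanks differed between ORR1 subfamilies. Between the flanks TTG and GTGTCACT, which are part of the most frequent window, 17533 stretches of 8 letters were found in ORR1 copies, of which 127 were in ORR1D2, 21 in ORR1E and 3 in ORR1F. GAGGAAGT was the most frequent in ORR1B1 (46.8% of 2910), ORR1A4 (42.2% of 644), ORR1B2 (31.0% of 1915) and ORR1C2 (28.2% of 1402). In ORR1A2 the most frequent was GAGTAGGT, in 41.0% of 9201, and GAGGAAGT was in 5.64%. In ORR1D1 it was GAGGAGGT, in 21.8% of 1310, and GAGGAAGT was in 4.96%. Over all ORR1 copies with these flanks, 67 of 3233 with GAGGAAGT were at a peak (2.07%, 1.64 to 2.62%), against 115 of 14300 with any other letters (0.804%, 0.670 to 0.964%). GAGTAGGT was at a peak in 38 of 3889 (0.977%, 0.713 to 1.34%) and GAATGGGT in 8 of 1264 (0.633%). For GAGGAAAT and AAGGAAGT, the shares were 1.76% of 341 and 1.79% of 336, with intervals that included both 2.07% and 0.977%. The subfamilies take different parts in these counts, which were not separated by subfamily. The flanks belong to windows chosen from copies at peaks that held GAGGAAGT, so part of the difference can come from that choice.

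Other strings also differed between copies at peaks and copies elsewhere, over all 14 profiles. The RUNX string was in 12.7% (11.5 to 14.1%) of copies at peaks and 4.55% elsewhere, the GC box in 6.88% and 2.58%, and the high-affinity ETS string in 2.27% and 0.659%. The E protein string was in 17.4% and 14.5% and the EBF string in 4.30% and 2.91%. The CTCF part was in 12.9% and 8.67%, although it was less frequent in ERVL-MaLR peaks than in peaks outside repeats. The intervals were apart with the string more frequent at peaks in 9 of 14 subfamilies for RUNX, 8 for the GC box and 7 for the CTCF part. They were so in 4 each for ETS and the E protein string and 3 for EBF, and the opposite held in none for these 6 strings.

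Some strings were less frequent in copies at peaks over all profiles: AATAAA in 25.3% against 37.0%, CCAAT in 37.2% against 40.7%, AGGTCA in 16.4% against 22.0% and GAANNGAAA in 11.1% against 14.3%. The intervals were apart in this direction in 6 of 14 subfamilies for AATAAA, 3 for CCAAT and 1 each for AGGTCA and GAANNGAAA, namely MTC. MTC held 18571 of the 33238 copies elsewhere with GAANNGAAA, and its shares were 24.9% at peaks and 40.5% elsewhere, and for AGGTCA 21.3% and 43.7%. Without MTC, an alternative chosen after the data were seen, AATAAA was in 23.5% against 29.1% and CCAAT in 37.8% against 44.3%. AGGTCA then had intervals that ran into each other (14.6 to 17.5% against 16.4 to 16.8%), and GAANNGAAA turned to the other direction, with 10.1% (8.91 to 11.4%) against 7.85% (7.73 to 7.97%). By subfamily, GAANNGAAA was more frequent at peaks with intervals apart in MTD (18.1% against 8.93%), MTE2a (35.6% against 21.7%), ORR1B1 (8.07% against 4.02%) and ORR1C2 (14.0% against 5.94%). The GATA, AP-1, C/EBP, STAT, TCF, NF-E2, ZEB, NF-kB, TTACGTAA and TATA strings had intervals that ran into each other over all profiles. Without MTC, TATAAA was in 22.8% against 25.4%, with intervals apart.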

How the data were processed

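The study sequenced ATAC-seq libraries of 12 samples. Its methods state that the authors aligned reads to mm10 within the ENCODE ATAC-seq pipeline and discarded multimapping reads, so regions alike in many copies may be undercounted. Reproducible peaks of the 6 cell types (by Irreproducible Discovery Rate) were joined into 1 list without overlaps by chromVAR and annotated with HOMER 4.10.2, the version in the submitters' processing notes. Positions and distances were used as deposited, in bp. The deposited score was 0 in every peak and was not used. There were 0 columns of values per sample.

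Members carried the ERVL-MaLR class in the detailed annotation, with the subfamily before the first bar. The members, gene lists, 21 strings and naming rules were chosen with earlier results of these data known. The rules named subfamilies with at least 20 peaks, the 10 genes with most peaks and ties, list genes within 50 kb, the 5 peaks closest to a TSS and all strings. Profiles, genome copies, letters between flanks and near-identical pairs were chosen after the data were seen. Sequence and curated TSSs came from RefSeq on GRCm38.p6 (mm10). The deposited distance was within 2 bp of the curated one for 2966 members (87.8%).

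Profiles were built in 3 rounds from members of the 15 subfamilies with at least 60 (HMMER 3.4) and searched at an E value of 1e-10. MTE2b was left out because its profile aligned the centre of under 80% of peaks. As profiles came from peaks, copies unlike them may be missed. A copy was at a peak if it held a peak centre. Peaks were aligned with each other by blastn (BLAST 2.17.0, E value 1e-05). In simulated sequences, 4200 of 4200 planted strings were found. Scripts ran on Python 3.11.15 with scipy 1.17.1, numpy 2.4.6, matplotlib 3.10.9, pandas 2.3.3 and pysam 0.24.0, and samtools 1.23.1 indexed the genome. Shares have 95% Wilson intervals.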

Additional observations from a re-analysis of the deposited data

How the results depend on the processing

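Over 57 results and 91 alternative settings, 40 values moved and 4 reversed direction. The other 47 stayed within the interval of the reported value, or within 1.5-fold for counts. The count of ERVL-MaLR peaks, the counts per group and the intron share all did so, with 3204 peaks when internal parts were left out and an intron share of 44.0% by curated RefSeq transcripts. The median distance became 25888 bp with the nearest curated RefSeq TSS, and the 23 blood list genes with an ERVL-MaLR peak became 13 when only peaks within 50 kb counted. The ratio of the PU.1 share in ERVL-MaLR peaks to that outside repeats was 2.86; it was 3.44 in the central 200 bp and 1.25 with 1 mismatch allowed, where 77.5% of ERVL-MaLR peaks and 62.2% of peaks outside repeats matched. With 1 mismatch, the ratios for ETS (1.04), C/EBP (1.00) and AP-1 (1.03) were no longer below 1, and those for CTCF, E protein, ZEB and STAT were 0.997 to 1.000. At this setting 14 of 21 strings, these except ETS included, were in at least 85% of the peaks of both classes, which leaves no room for a difference. For the 20 strings other than PU.1, 15 of the values stayed within the interval, 22 moved beyond it and 3 reversed. Otherwise the cause was not tested. Among genome copies, the share with GAANNGAAA at peaks was 0.774 times that elsewhere and 1.28 times without MTC, which held most of the copies elsewhere with it; the ratio for the PU.1 string became 2.81 from 3.13. The median share of centres within 25 bases of the median, over 8 subfamilies, was 39.2% with 1 reference copy each, 57.6% with the second copy and 38.5% with profiles, an alternative chosen after seeing the data. No reference copy aligned any ORR1F centre. No paired analysis was possible because the list is pooled over samples and carries no values per replicate. Without depth or cell type per peak, a repeat without a peak may be closed or not mappable.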

Other observations

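Runs of 8 letters were also compared without a list of factors, between copies at peaks and copies elsewhere, in the 8 largest profiled subfamilies. All runs in at least 6% of the copies at peaks, from 216 in ORR1F to 779 in ORR1B1, were ranked by the ratio of the shares. To the share elsewhere 0.5 percentage points were added, and the first 5 of each subfamily were read. The ranking itself selected high ratios, and only some of these runs are named below. This comparison was chosen after the data were seen, and the runs overlap each other. In ORR1E, the 5 runs formed 1 stretch around GCGCCACC, which was in 31 of the copies at peaks (7.58%) and 1.54% of copies elsewhere. ACAGCGCC of the same stretch was in 7.09% and 1.42% in ORR1E and in 6.25% and 1.65% in ORR1D2. In MTD, AGGAAGTA was in 8.10% of copies at peaks and 1.67% elsewhere, and AACCACAG, which contains the RUNX string, in 9.97% and 2.65%. In ORR1D2, AGGAAGTG was in 126 copies at peaks (32.8%) and 11.0% elsewhere, and AAACCACA in 10.4% and 3.44%.

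In ORR1F, CCCCAGCA was in 6.25% of copies at peaks and 1.01% elsewhere, and the PU.1 string itself was second with 29.5% and 8.21%. In ORR1B1 the first was AGGTTTCC with 7.17% and 1.45%, and in ORR1B2 CCTCCCAC with 6.74% and 1.30%. The run AAACCACA, which contains the RUNX string, was second in ORR1B2 with 10.7% and 2.61%. In ORR1A2, whose peak centres were gathered at the place of the PU.1 string but whose copies mostly had other letters there, the first was GGAACTGA with 13.7% and 3.56%, followed by GCCCACGC with 8.57% and 2.05%. In MTC, AAGTGAAA led with 6.51% and 1.05%, and ACCACAGC was in 7.10% and 1.32%.

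The ORR1B1 peak at chr1:60811930-60812428, 65791 bp from the TSS of the T cell costimulation gene Cd28, was the ORR1B1 peak to which most others of its subfamily aligned, although it did not hold the PU.1 string.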
